A study of Mus musculus with 4 samples.

Results

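The chromatin at the genes of 8 transcriptional regulators of myeloid fate, Zeb2, Bcl6, Gfi1, Nfil3, Tcf4, Id2, Id3 and Ikzf1, was compared between WT and IRF8KO microglia, the resident macrophages of the brain. IRF8, an interferon regulatory factor, binds DNA with partners such as PU.1 and directs macrophage and dendritic cell development. The members are all deposited peaks that overlap these gene bodies or the 50 kb on each side of them (GRCm38, GENCODE M21). Accessibility was measured by ATAC-seq, in which the Tn5 transposase cuts open DNA and leaves sequencing adapters. There were 4 libraries, 2 labelled WT and 2 labelled IRF8KO. All came from untreated C57BL/6 mice aged 3 months, and the microglia were isolated without enzymes and sorted by flow cytometry. The labels do not give the IRF8 allele, its cell-type range or the sex of the mice. They name a brain in the singular and do not say that replicates are separate mice, so the p-values below measure only the spread between these libraries.

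The windows held 241 of 143525 and 222 of 177972 deposited peaks in WT replicates 1 and 2, while IRF8KO replicates 1 and 2 held 206 of 180970 and 219 of 173590. Peaks with a −log10 q of 2 or more in any library, called strict here, merged into 233 regions of 155546 in the genome. Of these, 49 lay at Zeb2, 10 at Id2, 23 at Id3, 11 at Nfil3, 72 at Tcf4, 37 at Ikzf1, 12 at Gfi1 and 19 at Bcl6. The level of a region is the highest deposited pileup in it, the number of extended cut sites that cover a summit, per 1000000 tags of that library. A region is shared when every library has a deposited peak in it. It is WT-only when both WT libraries hold a strict peak and neither IRF8KO library holds a deposited peak of any strength, and IRF8KO-only in the converse case. A region without a deposited peak may still hold tags below the caller's cutoff. The lowest deposited pileups were 6 and 6 in WT and 8 and 7 in IRF8KO, which are levels of 0.128 and 0.123 against 0.102 and 0.106.

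These proteins are known from the choice between myeloid lineages. ZEB2 is a zinc finger repressor of E2-box DNA that helps resident macrophages keep their tissue identity. The E protein encoded by Tcf4 binds E-boxes as a dimer, and ID2 and ID3, which lack a DNA-binding domain, sequester E proteins. NFIL3, ID2 and ZEB2 act in a shared regulatory circuit in dendritic cell precursors, where they help to set the level of Irf8. BCL6 and GFI1 are zinc finger repressors of inflammatory and lineage genes, and Ikaros, encoded by Ikzf1, is a zinc finger regulator of blood cell development.

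The sequences around several summits are given first because the results return to them. Each line holds the best summit with 100 bases of GRCm38 on each side, plus strand. Capitals mark matches, on either strand, to the motifs searched: the ETS-IRF composite element (GGAA, any 2 bases, GAAA), at which IRF8 binds with PU.1, the interferon-stimulated response element or ISRE (GAAA, any 2 bases, GAAA), AP-1 (TGACTCA), CEBP (TTGC, any 2 bases, AA), RUNX (TGTGGT), the E2-box (CACCTG) and the E-box (CAGCTG). PU.1 and NFIL3 motifs were also searched and none lay in these windows. The first 2 are at Zeb2, at chr2:45106024-45106243, which is WT-only, and at chr2:45089538-45090009, which was lower in IRF8KO. The next 2 lie upstream of Bcl6, at chr16:24012181-24012453, lower in IRF8KO, and at chr16:24027283-24027781, with only a weak peak in 1 IRF8KO library. The fifth, at chr13:52962445-52962643 beyond the 3′ end of Nfil3, was lower in IRF8KO. The last 2 lie upstream of Id3, at chr4:136117051-136117554 and chr4:136123491-136123753, and are IRF8KO-only.
Zeb2 exon, WT-only: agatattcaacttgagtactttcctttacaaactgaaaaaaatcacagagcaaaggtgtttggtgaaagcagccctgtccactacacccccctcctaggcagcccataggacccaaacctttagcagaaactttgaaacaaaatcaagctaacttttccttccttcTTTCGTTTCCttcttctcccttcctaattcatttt
Zeb2 intron, lower: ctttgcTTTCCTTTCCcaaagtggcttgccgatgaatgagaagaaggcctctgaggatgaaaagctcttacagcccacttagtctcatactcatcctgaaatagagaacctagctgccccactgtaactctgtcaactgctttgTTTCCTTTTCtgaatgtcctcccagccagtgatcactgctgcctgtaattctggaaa
Bcl6 upstream, lower: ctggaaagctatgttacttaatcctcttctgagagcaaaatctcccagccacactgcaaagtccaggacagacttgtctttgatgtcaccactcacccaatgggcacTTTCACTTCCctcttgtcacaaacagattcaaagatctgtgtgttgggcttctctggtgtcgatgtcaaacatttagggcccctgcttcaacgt
Bcl6 far upstream, weak in IRF8KO: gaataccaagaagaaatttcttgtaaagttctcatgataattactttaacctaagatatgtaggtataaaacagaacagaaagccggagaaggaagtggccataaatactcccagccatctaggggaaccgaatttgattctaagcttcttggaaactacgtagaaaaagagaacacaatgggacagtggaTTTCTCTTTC
Nfil3 downstream, lower: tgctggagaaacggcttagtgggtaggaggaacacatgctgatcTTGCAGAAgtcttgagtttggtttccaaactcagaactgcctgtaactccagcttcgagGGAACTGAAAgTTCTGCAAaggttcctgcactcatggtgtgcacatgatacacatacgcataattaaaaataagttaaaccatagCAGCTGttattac
Id3 upstream, IRF8KO-only: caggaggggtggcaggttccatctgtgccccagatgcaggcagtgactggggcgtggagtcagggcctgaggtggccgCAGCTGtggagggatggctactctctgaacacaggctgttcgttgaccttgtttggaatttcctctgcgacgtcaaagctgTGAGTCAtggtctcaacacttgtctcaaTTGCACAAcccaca
Id3 second upstream, IRF8KO-only: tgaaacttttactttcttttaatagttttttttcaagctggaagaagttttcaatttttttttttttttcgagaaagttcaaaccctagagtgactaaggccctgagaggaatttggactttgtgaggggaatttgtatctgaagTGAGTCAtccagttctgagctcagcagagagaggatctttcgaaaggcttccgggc

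Depth was 46948938 and 48896408 tags for WT replicates 1 and 2 against 78793572 and 66224648 for the IRF8KO replicates, and tags were 50 bp long in WT and 49 bp in IRF8KO, so depth and tag size cannot be told apart from genotype. Over the 58550 shared regions of the genome the median log2 level was −0.54 in WT and −0.85 in IRF8KO, lowest in IRF8KO replicate 1 at −1.17. Each library was therefore centred on its own median, and differences are relative to that shift of −0.30. The Irf8 gene body held 7 regions, 6 of them shared and 1 IRF8KO-only. The region at its start stood at 2.07 and 1.49 in WT and 0.863 and 1.36 in IRF8KO, and with the deleted part not given in the sources used here this does not check the labels. Promoter regions of 7 of 8 microglial marker genes had peaks in every library. The exception was Sall1, at 2.17 and 2.05 in WT, with no peak in IRF8KO replicate 1 and 0.136 in IRF8KO replicate 2. Of the 7, 2 were called lower by limma and 1 higher. P2ry12 went from 3.73 and 2.37 in WT to 0.749 and 1.39 in IRF8KO (−1.24, SE 0.21, limma adjusted p = 1.4e-06), a call that held without centring. The calls at Cx3cr1, lower (−0.48, SE 0.18, adjusted p = 0.041), and Olfml3, higher (1.31, SE 0.25, adjusted p = 2.7e-05), were lost without it. Promoters of 4 border macrophage markers summed to 0.788 and 0.614 in WT and 2.39 and 4.12 in IRF8KO, with no strict region at Lyve1 and Cd163 IRF8KO-only. Pf4 and Mrc1 were called higher, and without centring only Pf4 was. The astrocyte marker Aldh1l1 was also called higher, with and without centring, at 0.405 and 0.205 in WT and 0.850 and 1.53 in IRF8KO (2.29, SE 0.30, limma adjusted p = 3.7e-09). It was the only call among 13 fitted promoters of 28 dendritic cell, neutrophil, B cell, T or NK cell, neuron, astrocyte, oligodendrocyte and endothelial markers. Of the others, 8 had no strict region and 7 had peaks in some libraries only and could not be fitted, with fewer IRF8KO than WT libraries holding a peak in each. The highest of these were Mog, at 0.980 and 0.675 in WT, no peak in IRF8KO replicate 1 and 0.166 in IRF8KO replicate 2, and Ltf, at 0.958 and 0.491, no peak and 0.196. Slc1a2 had a peak in WT replicate 1 alone, at 0.256. The monocyte markers Ly6c2 and Ccr2 had no strict promoter region in any library. The part of these marker differences in the results below was not tested.

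Across the 8 loci, accessibility differed between genotypes in both directions, at about the rate of the whole genome. Of the 233 regions, 105 were shared, 45.1% against 37.6 percent of all regions. The WT-only regions numbered 11, 4.72% against 5.58 percent of the genome's regions, and the IRF8KO-only regions also 11, 4.72% against 3.86 percent. A further 46 regions, 19.7%, had a peak in 1 library alone, against 31.4 percent of all regions. Peaks in both WT libraries and a single IRF8KO library were found at 19 of the 233 regions, against 6.34 percent of all regions. The converse was found at 17 of the 233, against 4.62 percent. Shared regions were tested with limma over all 58550 and called at a Benjamini-Hochberg adjusted p under 0.05. At the 8 loci 13 of 105 were called lower in IRF8KO, or 12.4% against 12.5 percent of all shared regions, and 16 were called higher, or 15.2% against 13.3 percent. Centred levels did not overlap between genotypes at 35 regions that were lower in IRF8KO, 33.3% against 29 percent, and at 32 that were higher, 30.5% against 29.4 percent. The median difference was −0.02 on the log2 scale against −0.00 over all shared regions. Without centring, 8 of 105 were called lower, against 6.83 percent of all shared regions, and 1 of 105 higher, against 2.81 percent. Higher calls then made up 11.1% of calls in place of 55.2%. Over the genome the same change took that share from 51.7% to 29.1%. The plot of differences by locus shows where the calls lay, and differences between loci were not tested. Of the 29 called regions 5 held their call under all 10 alternatives: 2 adjoining regions in Zeb2 and 1 each at Bcl6, Id2 and Tcf4.

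**Figure D1:**
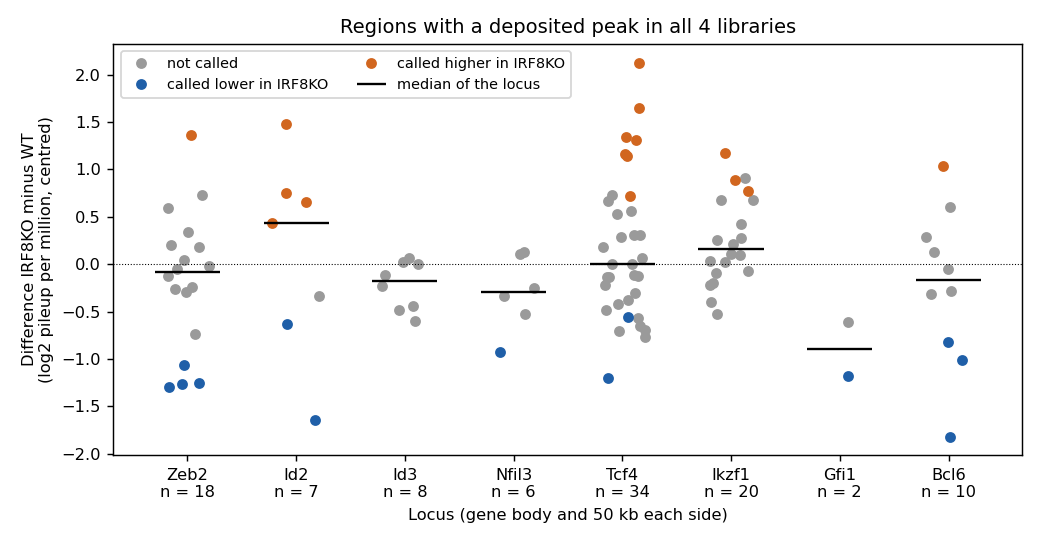
Difference between IRF8KO and WT (log2 pileup per 1000000 tags, each library centred on its median) for the 105 shared regions, by locus. Each point is a region, the black bar is the median of the locus, and colours mark calls at a limma adjusted p under 0.05. Of the 18 regions at Zeb2, 4 were called lower and 1 higher, and of the 34 at Tcf4, 2 lower and 7 higher. None of the 8 regions at Id3 was called. Over all shared regions of the genome 12.5 percent were called lower and 13.3 percent higher. Without centring Zeb2 had 4 lower and 0 higher calls and Tcf4 1 of each.

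Zeb2 lies on the minus strand at chr2:44983632-45117395. Of its 18 shared regions 4 were called lower, 22.2% against 12.5 percent of all shared regions, and 1 higher, 5.56% against 13.3 percent. The 2 strongest regions within the first 30 kb of the gene body were lower in IRF8KO, while the strongest region of all was not called. In the intron 27.8 kb after the start, the region with the ETS-IRF and ISRE matches printed above stood at 3.34 and 2.13 in WT and 0.965 and 0.846 in IRF8KO. Beside it, the region chr2:45089221-45089489 stood at 1.77 and 1.70 in WT and 0.622 and 0.529 in IRF8KO. Both IRF8KO libraries were below both WT libraries in each. The differences were −1.26 (SE 0.22, limma adjusted p = 5.6e-06), 2.39-fold lower, and −1.29 (SE 0.26, adjusted p = 4.0e-05), 2.45-fold lower.

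Closer to the start, the WT-only region 11.3 kb into the gene, in an exon of non-coding Zeb2 transcripts, stood at 0.809 and 0.736 and holds the ETS-IRF match of the first sequence. It is the higher of the 2 WT-only regions at the locus; the other, beyond the 3′ end, stood at 0.192 and 0.184. At an alternative start 5.22 kb inside the gene, shared with the antisense gene Zeb2os, the levels were 0.745 and 0.532 in WT and 0.178 and 0.257 in IRF8KO, a difference of −1.26 (SE 0.34, limma adjusted p = 0.0028). That call was lost with fold enrichment in place of pileup (adjusted p = 0.21) and without WT replicate 1 (adjusted p = 0.051). The region at the annotated 5′ start was low in all libraries, at 0.469 and 0.593 in WT and 0.228 and 0.287 in IRF8KO, and was not called (−0.74, SE 0.34, adjusted p = 0.11). The strongest region near any Zeb2 start, 6.28 kb inside the gene, stood at 0.895 and 0.634 in WT and 0.508 and 0.529 in IRF8KO and was not called (−0.24, SE 0.29, adjusted p = 0.63).

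Deeper in the gene and beyond it the pattern was mixed. The highest region of the locus, 67.9 kb after the start in an intron, was at 6.86 and 5.26 in WT and 4.43 and 7.04 in IRF8KO, groups that overlap as they stand, with a difference of 0.20 (SE 0.15, limma adjusted p = 0.37). Another intronic region 104 kb after the start was called lower (−1.07, SE 0.28, adjusted p = 0.0021), at 1.90 and 1.248 in WT and 0.279 and 1.27 in IRF8KO. Its low value came from IRF8KO replicate 1, and without that library the adjusted p was 0.46. The call was also lost with fold enrichment (adjusted p = 0.092) and without the variance trend (0.12). Just past the 3′ end, chr2:44981581-44982049 was the only shared region called higher at Zeb2, at 0.745 and 0.654 in WT and 1.28 and 1.66 in IRF8KO. That difference was 1.37 (SE 0.24, adjusted p = 5.6e-06), and 0.16 was the adjusted p without centring. The IRF8KO-only region lay further downstream, at 0.317 and 0.438. Of the 49 regions at Zeb2, 6 had peaks in both IRF8KO libraries and a single WT library, against 4.62 percent of all regions. The converse held for 1, against 6.34 percent, and none of these could be fitted. Among the 6, the region 161 kb after the start stood at 0.170 in WT replicate 1, with no peak in WT replicate 2. In IRF8KO it stood at 0.495 and 1.21.

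**Figure D2:**
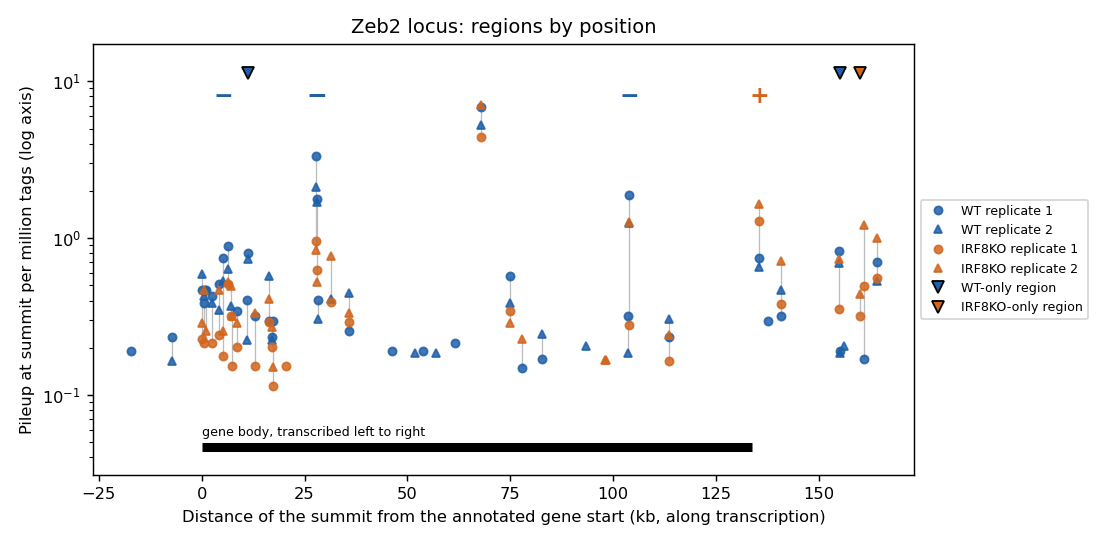
Level of each Zeb2 region in each library (pileup at the summit per 1000000 tags, log axis) against the distance of its summit from the annotated start in kb along transcription. Grey lines join the libraries of a region, a missing point means no deposited peak, triangles at the top mark genotype-only regions, and minus and plus signs mark called regions. The minus signs near 28 kb stand over points at 3.34 and 1.77 in WT replicate 1, and the highest region, near 68 kb, has points of both genotypes close together.

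At Bcl6, on the minus strand at chr16:23965052-23988852, the regions called lower in IRF8KO and the WT-only region lay upstream of the gene, and the IRF8KO-only regions lay in its introns. Of the 10 shared regions 3 were called lower, 30% against 12.5 percent of all shared regions, and 1 higher, 10% against 13.3 percent. The region 5.62 kb upstream, chr16:23994398-23994541, fell most, from 1.06 and 0.675 in WT to 0.140 and 0.272 in IRF8KO. The difference was −1.82 (SE 0.33, limma adjusted p = 8.9e-06), 3.52-fold lower. Its neighbour 4.66 kb upstream stood at 2.96 and 2.68 in WT and 1.09 and 1.54 in IRF8KO (−0.81, SE 0.20, adjusted p = 0.00086). The region 23.4 kb upstream, with the ETS-IRF match printed above, stood at 0.660 and 0.634 in WT and 0.203 and 0.332 in IRF8KO (−1.01, SE 0.33, adjusted p = 0.015). In all 3 both IRF8KO libraries were below both WT libraries. The first was called in every alternative. The second was lost without centring (adjusted p = 0.082), with fold enrichment (0.42) and without WT replicate 2 (0.052). The last was lost without centring (adjusted p = 0.10) and without WT replicate 2, IRF8KO replicate 1 or IRF8KO replicate 2 (0.16, 0.085 and 0.064).

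Between them, 10.7 kb upstream, the WT-only region stood at 0.682 and 0.614. The most distant region upstream, 38.8 kb from the start and with the ISRE match printed above, stood at 1.17 and 1.12 in WT, had no peak in IRF8KO replicate 1 and stood at 0.211 in IRF8KO replicate 2. A region in the gene 8.34 kb after the start had the like pattern, at 1.38 and 0.941 in WT, 0.241 in IRF8KO replicate 1 and no peak in replicate 2. Neither could be fitted, for want of a peak in all libraries. The IRF8KO-only regions, 3.21 and 7.40 kb after the start in introns, stood at 0.596 and 1.22 and at 0.432 and 0.544. The region 27.6 kb upstream, which holds an AP-1 and 3 RUNX matches, was called higher, at 0.319 and 0.286 in WT and 0.419 and 0.604 in IRF8KO (1.04, SE 0.33, limma adjusted p = 0.013). That call was lost without centring (adjusted p = 0.48) and without WT replicate 1, IRF8KO replicate 1 or IRF8KO replicate 2 in turn. The promoter stood at 2.49 and 2.41 in WT and 1.15 and 2.22 in IRF8KO and was not called (−0.31, SE 0.20, adjusted p = 0.28).

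**Figure D3:**
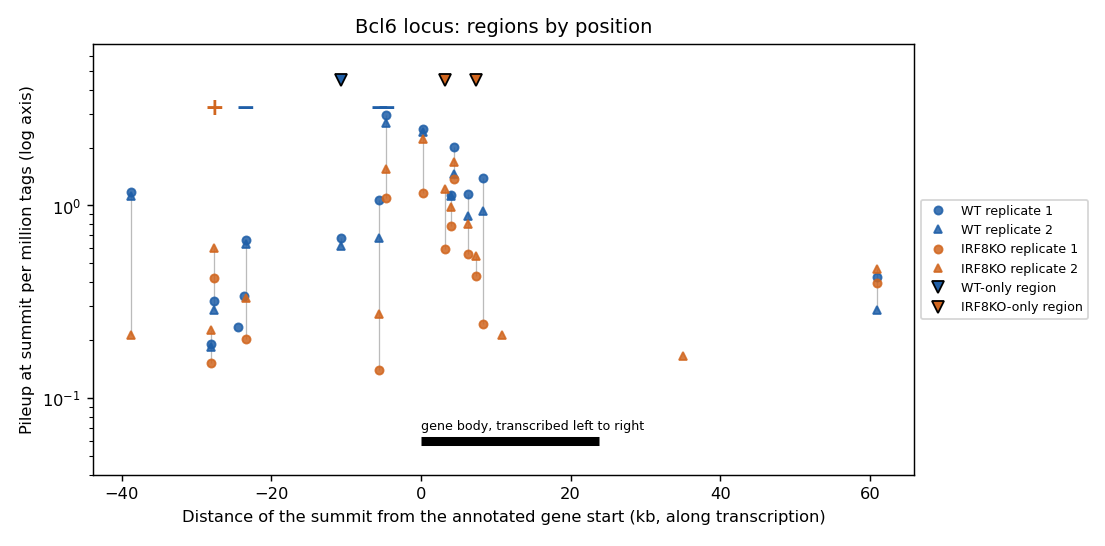
Level of each Bcl6 region in each library (pileup at the summit per 1000000 tags, log axis) against the distance of its summit from the annotated start in kb along transcription; negative distances are upstream. Symbols are those of the Zeb2 plot. The upstream regions carry 3 minus signs, 1 plus sign and the WT-only triangle, and both IRF8KO-only triangles stand over the gene body.

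Gfi1 and Nfil3 had few regions. Called lower were 1 of 2 shared regions at Gfi1 and 1 of 6 at Nfil3, against 12.5 percent of all shared regions. None was called higher, against 13.3 percent. Gfi1, at chr5:107716657-107726036 on the minus strand, had no shared region at its start: the strongest region there had a peak of 0.266 in WT replicate 2 and 0.211 in IRF8KO replicate 2 alone. Its single called region, 17.5 kb after the start and beyond the 3′ end, stood at 0.554 and 0.389 in WT and 0.140 and 0.196 in IRF8KO (−1.18, SE 0.36, limma adjusted p = 0.0090), and the call was lost without WT replicate 1 (adjusted p = 0.10) and without either IRF8KO library. The genotype-only regions of the window both lay in introns of the neighbouring gene Evi5. The IRF8KO-only region stood at 0.368 and 0.695 and the WT-only region at 0.277 and 0.205.

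At Nfil3, on the minus strand at chr13:52967209-52981073, the promoter stood at 2.45 and 2.23 in WT and 1.48 and 1.51 in IRF8KO. Both IRF8KO values were the lower ones, but relative to the centre of each library the groups overlapped and the region was not called (−0.34, SE 0.21, limma adjusted p = 0.25). An IRF8KO-only region adjoined it 0.412 kb upstream, at 0.432 and 0.423. The called region 18.5 kb after the start, beyond the 3′ end, with the ETS-IRF match flanked by CEBP matches printed above, stood at 0.532 and 0.368 in WT and 0.140 and 0.257 in IRF8KO (−0.92, SE 0.36, adjusted p = 0.048). It was the weakest of the lower calls by adjusted p and was lost in 7 of the 9 alternatives that could fit it, each left-out library among them.

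Tcf4 had the most regions and the most calls, in both directions, all of them inside the gene body. The gene lies on the plus strand at chr18:69343356-69689079. Its promoter stood at 3.83 and 3.93 in WT and 2.51 and 3.26 in IRF8KO and was not called (−0.13, SE 0.17, limma adjusted p = 0.65). Of 34 shared regions 7 were called higher, 20.6% against 13.3 percent of all shared regions, and 2 lower, 5.88% against 12.5 percent. The largest increase, 312 kb after the start next to an internal start, went from 0.405 and 0.205 in WT to 0.761 and 1.36 in IRF8KO, a difference of 2.13 (SE 0.31, adjusted p = 4.6e-08), 4.37-fold higher. This region holds an AP-1 and a CEBP match and was the only higher call at the 8 loci that held without centring. The next largest, 63.7 kb after the start, stood at 0.192 and 0.164 in WT and 0.305 and 0.664 in IRF8KO (1.65, SE 0.36, adjusted p = 0.00021). The other 5 higher calls lay between 0.72 and 1.34.

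The adjoining regions 243 kb after the start were the lower calls. The larger fall went from 1.49 and 1.04 in WT to 0.355 and 0.544 in IRF8KO (−1.20, SE 0.27, limma adjusted p = 0.00030), and was at an adjusted p of 0.052 with fold enrichment in place of pileup. The stronger region beside it stood at 3.45 and 2.70 in WT and 1.18 and 2.39 in IRF8KO (−0.56, SE 0.19, adjusted p = 0.021), a call lost without centring (adjusted p = 0.22), without the variance trend (0.15) and without WT replicate 1, WT replicate 2 or IRF8KO replicate 1. With fold enrichment its difference was −0.15 (adjusted p = 0.78). Each holds a PU.1 match. Tcf4 also held 6 of the 11 WT-only regions, all intronic, 5 of them between 284 and 320 kb after the start, with levels from 0.213 to 0.447. Of the windows of 21755 protein-coding genes, 0.841% held as many WT-only regions, and the Tcf4 window of 446 kb is the longest of the 8. The higher call at 312 kb lay among these WT-only regions and that at 324 kb just beyond them. The IRF8KO-only region, 75.0 kb after the start, stood at 0.292 and 0.362.

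**Figure D4:**
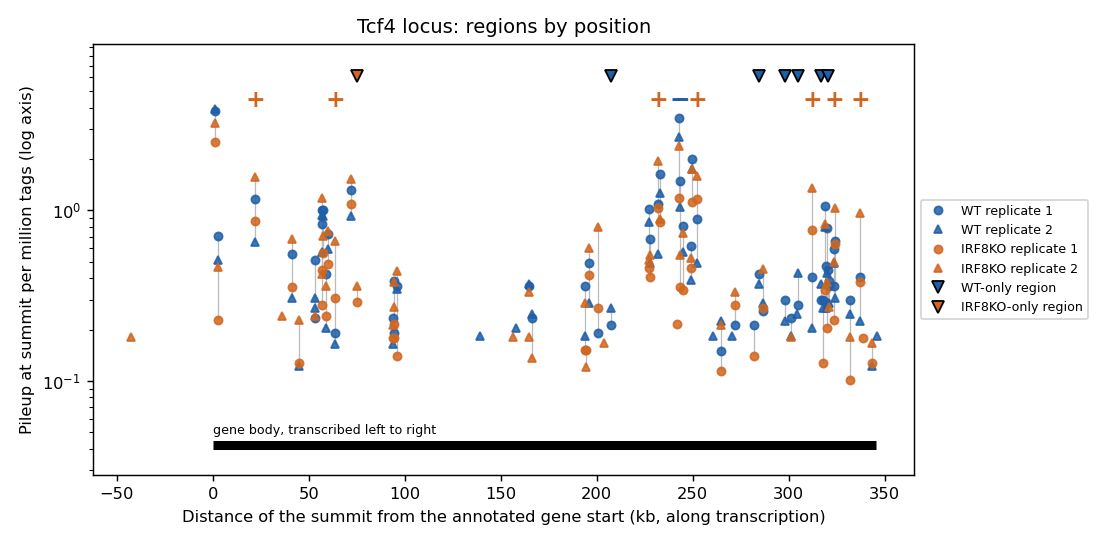
Level of each Tcf4 region in each library (pileup at the summit per 1000000 tags, log axis) against the distance of its summit from the annotated start in kb along transcription. Symbols are those of the Zeb2 plot. Of the 6 WT-only triangles, 5 stand between 284 and 320 kb, with a plus sign at 312 kb among them and another at 324 kb just beyond.

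Of the inhibitors of E proteins, Id2 had 2 lower and 4 higher calls among 7 shared regions, where 12.5 and 13.3 percent of all shared regions were called, and no genotype-only region. Id3 had IRF8KO-only regions and no call among 8 shared regions, and the difference between the loci was not tested. Id2 lies on the minus strand at chr12:25093799-25097140. Its promoter was the strongest of the 8, at 6.13 and 5.22 in WT and 5.48 and 7.01 in IRF8KO. These values overlap as they stand. The region was called higher (0.44, SE 0.15, limma adjusted p = 0.022), but with fold enrichment in place of pileup the difference was 0.051 (adjusted p = 0.94). The call was also lost without centring (adjusted p = 0.89), without the variance trend (0.25) and without WT replicate 1, WT replicate 2 or IRF8KO replicate 1. The region 4.12 kb upstream, chr12:25101168-25101376, stood at 0.426 and 0.409 in WT and 0.736 and 1.21 in IRF8KO, with no overlap (1.48, SE 0.29, adjusted p = 2.8e-05), and was lost only without centring (adjusted p = 0.15). The region of largest fall was 46.6 kb upstream, chr12:25143532-25143825, with an AP-1 match. It went from 0.809 and 0.593 in WT to 0.178 and 0.181 in IRF8KO (−1.64, SE 0.35, adjusted p = 0.00011), 3.13-fold lower, and was called in every alternative. Its stronger neighbour 45.3 kb upstream stood at 2.41 and 1.595 in WT and 0.825 and 1.27 in IRF8KO (−0.63, SE 0.22, adjusted p = 0.022), and was lost without centring (adjusted p = 0.21), without the variance trend (0.094) and without each library in turn. With fold enrichment its difference was −0.035 (adjusted p = 0.96). The 2 remaining higher calls, 4.66 kb after the start and at the promoter of the neighbouring gene Kidins220, were lost without centring (adjusted p = 0.66 and 0.72), without the variance trend (0.085 and 0.28) and without WT replicate 2 or IRF8KO replicate 1. With fold enrichment the differences of 0.75 and 0.66 became 0.19 (adjusted p = 0.81) and 0.53 (adjusted p = 0.094).

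At Id3, on the plus strand at chr4:136143497-136145755, the promoter was not called, at 3.64 and 2.70 in WT and 2.35 and 3.02 in IRF8KO (0.07, SE 0.18, limma adjusted p = 0.84). With limma, 0 of its 8 shared regions were called, and 0 had an unadjusted p under 0.05. Of its 23 regions 4 were IRF8KO-only and 0 WT-only, and 1.75% of the windows of 21755 protein-coding genes held as many IRF8KO-only regions. The strongest lay 26.3 kb upstream at 0.800 and 1.19 and holds an AP-1, a CEBP and an E-box match, and the second printed sequence, nearer to the gene at 0.254 and 0.393, an AP-1 match. Another adjoined the promoter 0.156 kb upstream, at 0.355 and 0.423. The remaining region, at 0.190 and 0.362, lay in an intron of the neighbouring gene E2f2. In the other direction, the region 3.03 kb upstream stood at 1.001 and 0.777 in WT, had no peak in IRF8KO replicate 1 and stood at 0.317 in IRF8KO replicate 2.

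Ikzf1, at chr11:11685003-11772926 on the plus strand, had no call at its strongest regions. The promoter stood at 5.41 and 3.99 in WT and 3.03 and 4.12 in IRF8KO (−0.09, SE 0.16, limma adjusted p = 0.76). The strong intronic regions 45.3 and 78.6 kb after the start were not called either, with differences of 0.43 (SE 0.18, adjusted p = 0.069) and 0.25 (SE 0.17, adjusted p = 0.31). Of the 20 shared regions at Ikzf1, 3 were called higher, 15% against 13.3 percent of all shared regions, and 0 lower, against 12.5 percent. The largest of the 3 higher calls, 5.15 kb upstream, stood at 0.234 and 0.245 in WT and 0.355 and 0.544 in IRF8KO (1.18, SE 0.35, adjusted p = 0.0070). All 3 were lost without centring (adjusted p from 0.35 to 0.67), and without WT replicate 1 or IRF8KO replicate 1. The largest was also lost without IRF8KO replicate 2 (adjusted p = 0.072), and the call in an intron of Ddc held in 2 of 10 alternatives. An IRF8KO-only region 5.10 kb after the start, at 0.546 and 1.10, adjoined the third, which was also lost with fold enrichment (adjusted p = 0.093) and without the variance trend (0.090). The WT-only region, 83.3 kb after the start, stood at 0.383 and 0.389. Of the 37 regions of the window, 6 had peaks in both WT libraries and a single IRF8KO library, against 6.34 percent of all regions. Of these 6, 5 lacked the peak in IRF8KO replicate 1.

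**Figure D5:**
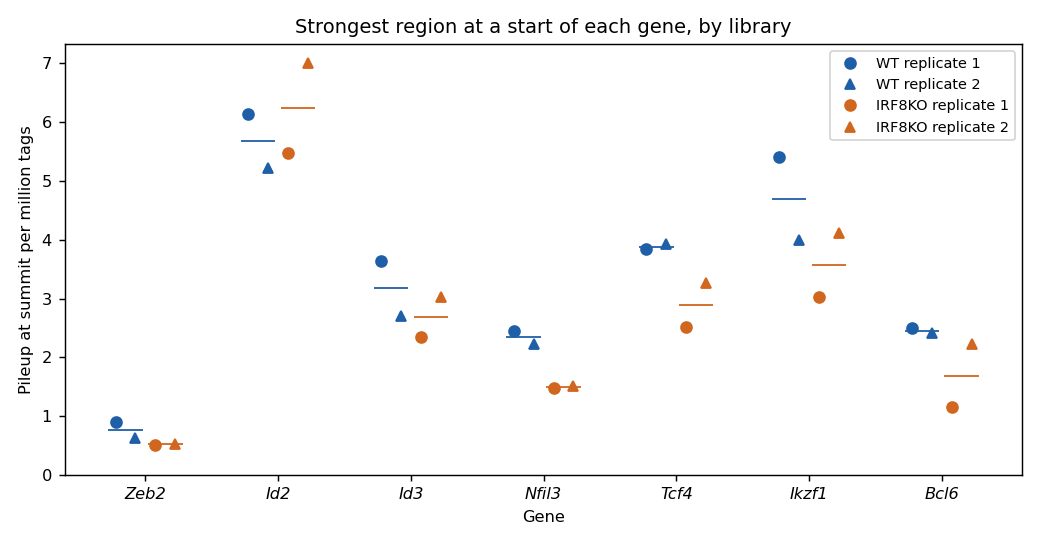
Level of the strongest region within 1 kb of any annotated start of each gene (pileup at the summit per 1000000 tags, not centred) in the 4 libraries, with bars at the mean of each genotype. Gfi1 is left out because no region there had a peak in all libraries. Id2 is highest, from 5.22 to 7.01, Zeb2 lowest, from 0.508 to 0.895, and IRF8KO replicate 1 is the lower IRF8KO library at all 7 genes.

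Between genes the promoter levels ordered as Id2, Ikzf1, Tcf4, Id3, Bcl6, Nfil3 and Zeb2 by their WT means of 5.67, 4.70, 3.88, 3.17, 2.45, 2.34 and 0.764 (SD 0.650, 1.01, 0.0656, 0.667, 0.0557, 0.156 and 0.184, n = 2 each). The mean of Ikzf1 differs from those of Id2 and of Tcf4 by less than its own SD, and the means of Bcl6 and Nfil3 differ by less than the SD of Nfil3. Of these 7 promoters only that of Id2 was called, a call lost in the alternatives named above.

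The motif content of the regions was compared with all regions over windows of the same length. The ETS-IRF element lay in 12 of 233 regions, 5.15% against 4.30% of 155546. It lay in 3 of the 13 called lower, which are those printed above at Zeb2, Bcl6 and Nfil3, against 12.5% of the lower calls of the genome, in 1 of 11 WT-only regions against 18.7%, and in 0 of the 16 called higher and 0 of the 11 IRF8KO-only regions, against 2.59% and 1.83%. The AP-1 motif lay in 25 regions, 10.7% against 5.91%, among them 2 of the 11 IRF8KO-only, 3 of the 16 called higher and 2 of the 13 called lower. The genome's shares in those classes were 15.2%, 14.2% and 5.29%, so the first 2 counts are near them. The E2-box that ZEB2 binds lay in 20 regions, 8.58% against 11.5%, and the E-box in 44, 18.9% against 13.5%. A match describes letters and does not show binding.

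Of 23 related genes, relatives of the members or partners in dendritic cell and macrophage fate, all had a promoter peak in all libraries, and 5 were called lower and 0 higher by limma. Over 13037 promoter regions of protein-coding genes, 7.13 percent were called lower and 5.8 percent higher. The largest fall was at Hlf, a PAR-domain leucine zipper gene related to Nfil3 in binding site, from 1.38 and 1.68 in WT to 0.216 and 0.287 in IRF8KO (−2.31, SE 0.29, limma adjusted p = 1.3e-09). Batf3, a leucine zipper factor of dendritic cells that partners IRF8, went from 0.873 and 0.614 to 0.165 and 0.332 (−1.34, SE 0.33, adjusted p = 0.00094). Bcl11a, a zinc finger repressor, went from 1.21 and 0.757 to 0.228 and 0.423 (−1.32, SE 0.30, adjusted p = 0.00038). Zeb1, the paralog of Zeb2, went from 2.68 and 2.27 to 0.558 and 1.31 (−1.22, SE 0.22, adjusted p = 7.4e-06), and Gfi1b, the paralog of Gfi1, from 1.68 and 1.39 to 0.723 and 0.921 (−0.60, SE 0.23, adjusted p = 0.049). Without centring the call at Gfi1b was lost and the other 4 held. Among the 18 not called were the other E protein genes Tcf3 (−0.23, SE 0.17) and Tcf12 (0.47, SE 0.20), the ID genes Id1 and Id4, Irf4, Klf4, Spi1 (0.03, SE 0.17) and Cebpa (0.21, SE 0.14).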

How the data were processed

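ATAC-seq peak lists of 4 libraries were analysed, 2 WT and 2 IRF8KO, grouped by their labels. Per the submitters' processing notes, Bowtie2, MACS2 2.1.1.20160309 and the mm10 build were used. Peak calling by the authors ran on each library alone and with no control, per the file headers, with a cutoff on p of 0.01, cut sites shifted by 37 bp and extended to 73 bp, and a local background over 10 kb. The deposited pileup is a signal in whole tags that is not scaled for depth. Fold enrichment, as deposited, is a ratio to the local background. Significance is deposited as −log10 p and −log10 q. The file headers say that q was not calculated, but its column holds values, which set strictness here. The peak scores are all the authors' own. Comparing pileup between lists assumes that it scales with tag number, and a deeper library calls a peak of given height more readily. No interval for counting error is given, since a pileup at a summit is not a count of tags in a region.

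Strict peaks were merged, and a peak was taken to lie in a region at an overlap of 1 bp. The log2 level (pileup per 1000000 tags) of shared regions was tested with limma 3.58.1 (R 4.3.3; trend, moderated variance) over all 58550 with genotype as the only term and Benjamini-Hochberg adjustment, at 0.05. With 2 against 2 libraries an exact permutation test cannot go below p = 0.333. The script was tested on simulated data. Motifs were searched within 100 bp of the best summit in GRCm38.p6. Named were, for each locus, the strongest region within 1 kb of a start, the strongest genotype-only regions and the called regions of largest difference; further regions were chosen after their values were seen. The loci, gene lists and motifs were chosen with earlier results of these data known. Alternatives left out each library, centring, the variance trend or low pileups, or changed the measure, strictness, window, overlap or pairing.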

Additional observations from a re-analysis of the deposited data

How the results depend on the processing

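Of the 29 called regions none reversed, and 5 stayed called throughout; 20 lost their call without centring, 12 with fold enrichment, 8 without the variance trend and 15, 11, 11 and 11 without IRF8KO replicate 1, IRF8KO replicate 2, WT replicate 1 and WT replicate 2. The count of lower calls (13) became 8 without centring, 8 with fold enrichment and 7 to 10 with a library left out; that of higher calls (16) became 1 without centring and 8 to 11 with a library left out, where the lone library of its genotype is assumed to vary like the others. Over all 58550 shared regions the 7292 lower calls became 4001 without centring and 4566 with fold enrichment, and the 7812 higher calls became 1643 without centring. The median difference (−0.02) became −0.33 without centring, against −0.31 over all shared regions, and 0.033 with fold enrichment, against 0.037. It was −0.076 at a mean pileup of 20 or more, against −0.012. With a library left out it was −0.15 to 7.4e-05, against −0.035 to 0.038. WT-only regions (11) numbered 4 at −log10 q of 5 or more, 30 with all deposited peaks and 14 to 35 with a library left out. IRF8KO-only regions (11) numbered 17 with all deposited peaks, 6 in windows of 10 kb and 14 to 26 with a library left out. Over the genome the 8673 WT-only regions became 4429 at −log10 q of 5 or more, 14368 with all deposited peaks and 9942 to 25008 with a library left out. The 6005 IRF8KO-only regions of the genome became 14161 with all deposited peaks and 7803 to 21010 with a library left out. Fewer libraries must hold or lack a peak when one is left out, which raises these counts. Strict peaks at the 8 loci were 181 and 156 in the WT libraries against 134 and 169 in the IRF8KO libraries (difference −17, exact permutation p = 0.667); the difference was −34.5 to 0.5 with a library left out, reversing to 0.5 without IRF8KO replicate 1, an alternative added after the data were seen. The cause of these changes was not tested.

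Deviations of same-numbered libraries from their genotype means correlated at 0.00436 over 58550 regions. This does not show whether same-numbered libraries shared a preparation or a run. With the replicate block in the limma fit, 12 regions were called lower and 16 higher, against 7394 and 7841 of all 58550. The lower call at Nfil3 was lost (adjusted p = 0.050).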

Other observations

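Upstream of Zeb2, outside the window described above, lies a long stretch with few genes in which distal regulatory elements of Zeb2 are known. Between 50 and 250 kb upstream, chr2:45167396-45367395 held 33 regions, of which 18 were shared, 3 WT-only and 2 IRF8KO-only. With limma, 5 of the 18 were called lower and 1 higher, against 12.5 and 13.3 percent of all shared regions, and without centring 2 of the 5 were called and the higher region was not. The median difference of the 18 was −0.30 on the log2 scale. The largest fall, 129 kb upstream, went from 3.13 and 2.21 in WT to 0.355 and 0.831 in IRF8KO (−1.97, SE 0.23, limma adjusted p = 1.8e-10), larger than any fall within 50 kb of the 8 genes. That call held without centring. The only region called higher, 162 kb upstream, stood at 1.09 and 0.675 in WT and 0.977 and 2.16 in IRF8KO, values that overlap as they stand (1.07, SE 0.24, adjusted p = 0.00029). It is printed because it holds a pair of CEBP matches and an E2-box, in capitals.
Zeb2 far upstream, higher: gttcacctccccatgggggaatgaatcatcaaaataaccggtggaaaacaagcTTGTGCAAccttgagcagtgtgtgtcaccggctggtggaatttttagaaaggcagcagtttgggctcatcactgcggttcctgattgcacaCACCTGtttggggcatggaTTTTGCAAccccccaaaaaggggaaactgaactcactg

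The protein-coding genes whose promoter levels over the 4 libraries were nearest to those of 6 of the members, by Euclidean distance of log2 levels, were Zmpste24 for Zeb2 (0.172), Zfp787 for Id2 (0.0769), Cyp4f13 for Id3 (0.0806), Hmga1 for Nfil3 (0.102), Stag2 for Tcf4 (0.0538) and Tmem97 for Ikzf1 (0.0753).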
